A study of Rattus norvegicus with 4 samples.

Results

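The metabotropic glutamate receptor genes Grm2, Grm3, Grm4, Grm5, Grm7 and Grm8 were followed on 4 Affymetrix arrays of rat hippocampal RNA. The 6 genes were chosen by symbol, as those whose probe sets carry 1 of these symbols alone in the platform annotation, and they hold 9 of the 31099 probe sets and 6 of the 14217 singly named genes of the table. Each gene is described by its brightest probe set over the 4 arrays, and the other 3 probe sets, 1 of Grm5 and 2 of Grm8, are given for comparison. Sprague-Dawley rats received an injection into the hippocampus of the excitotoxin kainic acid (KA), which opens kainate-type ionotropic glutamate receptors, together with the peptide NAP, of KA alone, of NAP alone, or of PBS as the vehicle. NAP, a small peptide derived from the protein ADNP, was given at a subpicomolar concentration. The CA3 area was removed 24 h later in all groups, and 1 array per group was hybridised. The labels give no age or sex and do not say how many animals an array stands for. All values are therefore single-array values without replicate error, no test or p-value is given, and a difference of at least 2-fold is a fixed rule of size.

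Metabotropic glutamate receptors are G protein-coupled receptors that modulate synapses more slowly than the ionotropic AMPA, NMDA and kainate receptors. Group I, here Grm5, couples to Gq and phospholipase C, releases calcium from internal stores and sits mostly around the postsynaptic density. Group II, Grm2 and Grm3, and group III, here Grm4, Grm7 and Grm8, couple to Gi/o, lower cyclic AMP and, at axon terminals, reduce transmitter release. Grm2 is known from the mossy fibre terminals that dentate granule cells send into CA3, whereas Grm3 is made by neurons and by astrocytes.

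RefSeq promoter windows on build GRCr8 were at hand for 3 of the 6 genes, from 250 bases before to 50 bases after an annotated start. They are shown because they set side by side the group III gene that was lower on both KA arrays (Grm8), the group III gene that was not (Grm7), and the group I gene whose levels overlapped (Grm5). Capitals mark the E-box CANNTG, a common binding motif of basic helix-loop-helix factors.
Grm8, chr4:57687457-57687756, minus strand: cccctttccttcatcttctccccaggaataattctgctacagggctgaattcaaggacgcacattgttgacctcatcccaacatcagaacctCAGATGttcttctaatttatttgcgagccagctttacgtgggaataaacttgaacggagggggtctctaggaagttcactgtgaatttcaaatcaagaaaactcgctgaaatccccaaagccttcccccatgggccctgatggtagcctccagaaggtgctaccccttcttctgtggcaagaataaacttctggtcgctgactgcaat
Grm7, chr4:145286476-145286775, plus strand: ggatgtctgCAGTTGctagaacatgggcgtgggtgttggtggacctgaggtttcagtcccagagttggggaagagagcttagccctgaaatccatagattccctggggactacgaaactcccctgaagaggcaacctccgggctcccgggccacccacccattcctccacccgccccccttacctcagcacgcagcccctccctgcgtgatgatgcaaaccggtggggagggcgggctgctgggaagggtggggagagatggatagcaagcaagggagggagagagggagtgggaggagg
Grm5, chr1:150733503-150733802, plus strand: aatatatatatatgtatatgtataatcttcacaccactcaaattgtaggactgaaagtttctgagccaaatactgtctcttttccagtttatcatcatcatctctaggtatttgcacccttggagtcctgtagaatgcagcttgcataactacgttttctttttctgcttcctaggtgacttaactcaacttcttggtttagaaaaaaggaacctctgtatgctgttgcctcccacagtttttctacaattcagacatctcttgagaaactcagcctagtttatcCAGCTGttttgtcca
Each window holds 1 E-box, a motif present on either strand in 72.1% of the 33469 RefSeq windows of this length. Grm7 holds 2 GC boxes (GGGCGG, on either strand), which 33.1% of windows carry, and Grm8 and Grm5 hold none. None of the 3 windows has the AP-1 motif TGANTCA (7.33% of windows), the cyclic AMP response core TGACG (21.2%) or TATAAA (14.2%), searched on both strands. GC content was 47.3% for Grm8, 62% for Grm7 and 37.3% for Grm5, with 6, 9 and 1 CpG in the same order, against a median of 7 CpG over all windows. The Grm8 and Grm5 windows lie inside the annotated bounds of their genes, so other annotated starts of these genes are not covered. A match is a description of letters, not a binding site.

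The arrays had been scaled by the submitters to one level, with a mean of 250.1 after trimming 2% at each end on every array. Genes are compared with the 9489 genes whose brightest probe set had a mean intensity above 62.75, the median of the non-control probe sets. The 3′ to 5′ ratio of the beta-actin controls was 15.5 on the KA+NAP array, 11.4 on the KA array, 7.92 on the NAP array and 14.1 on the PBS array, and its part in the differences was not tested. Of the defining CA3 genes, Grik4 and Bok passed the filter, as did the dentate granule cell markers Prox1 and Calb1 and markers of every glial type listed. In such bulk tissue, fewer cells of a type and less RNA per cell cannot be told apart.

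**Figure D1:**
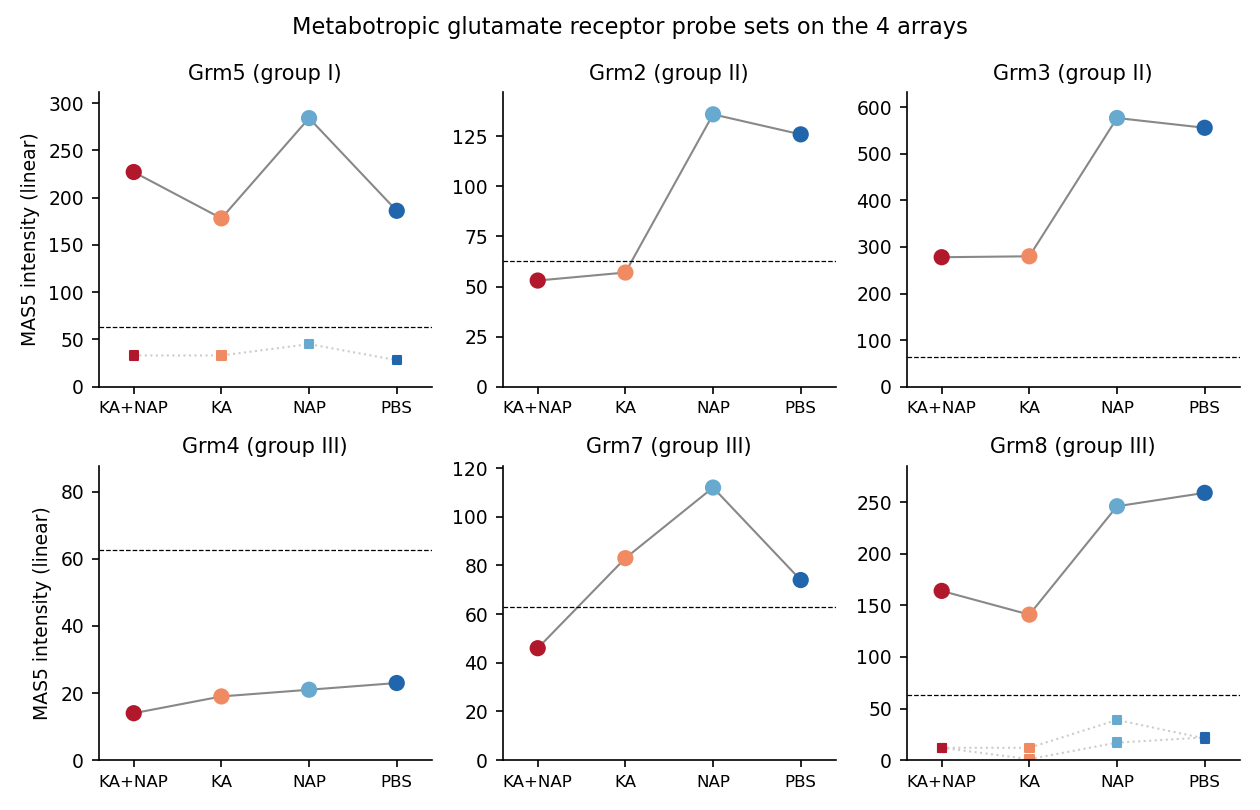
MAS5 intensity (linear axis from 0) of every probe set of the 6 receptor genes on the KA+NAP, KA, NAP and PBS arrays, 1 array per group. Large circles are the brightest probe set of a gene, small squares are its other probe sets, lines join the values of a probe set, and the dashed line is the filter at 62.75. Grm2, Grm3 and Grm8 lie lower on both arrays with KA than on both arrays without it, Grm5 peaks on the NAP array, Grm7 is lowest on the KA+NAP array, and Grm4 stays below the filter.

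Grm2 and Grm3, the group II pair, were at about the same reduced level on both KA arrays, with or without NAP. The probe set of Grm2 (1370998_at) had an intensity of 53 on the KA+NAP array, 57 on the KA array, 136 on the NAP array and 126 on the PBS array. The level with KA was 49.3% of that with PBS, a log2 difference of -1.02 on the log2(intensity + 10) scale used throughout, and the level with KA+NAP was 43.2% of that with NAP, a log2 difference of -1.21. Both KA arrays lay below both arrays without KA and under the filter of 62.75. Of genes past the filter, 2.21% were as low or lower in KA minus PBS and 1.15% in KA+NAP minus NAP. Grm2 passed the filter only through the arrays without KA, so nothing is read from these shares.

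The probe set of Grm3 (1388189_at), the brightest of the family, had an intensity of 278 with KA+NAP, 280 with KA, 577 with NAP and 556 with PBS. Its log2 difference was -0.96 in KA minus PBS, just short of 2-fold, and -1.03 in KA+NAP minus NAP. These were within the lowest 2.78% and 2.21% of genes. The 2 KA arrays thus differed by 2 intensity units and the 2 arrays without KA by 21, whereas KA stood at 51.2% of PBS and KA+NAP at 49.1% of NAP. Grm2 and Grm3 had the closest profiles of any 2 members, with a root mean square distance of 0.07 between their log2 profiles over the 4 arrays, each centred on its own mean. The next closest, Grm3 and Grm8, were 0.17 apart.

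Grm8, a group III presynaptic autoreceptor, was lower on both KA arrays too, by less. Its brightest probe set (1371242_at) had an intensity of 164 with KA+NAP, 141 with KA, 246 with NAP and 259 with PBS. The level was 56.1% of PBS with KA and 68.0% of NAP with KA+NAP, log2 differences of -0.83 and -0.56, neither of them 2-fold. At 10.2%, the share of genes as low in KA+NAP minus NAP was larger than the 4.18% in KA minus PBS. The other probe sets of Grm8 were dim on every array. One (1369391_at) read 12 with KA+NAP, 12 with KA, 39 with NAP and 21 with PBS, and the other (1371243_at) read 12, 1, 17 and 22 in that order. In both, the KA arrays also lay below the arrays without KA, but at these intensities the size of a difference is set largely by the pseudocount.

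Taking the arrays as pairs with and without KA, 3 of the 5 receptor genes past the filter (Grm2, Grm3 and Grm8) had both KA arrays below both arrays without KA. The same held for 28.7% of all genes past the filter, so non-overlap was common on these arrays. Grm2 alone was at least 2-fold lower in both KA differences, against 0.885% of all genes. Since Grm2 passed the filter only through the arrays without KA, nothing is read from that share.

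**Figure D2:**
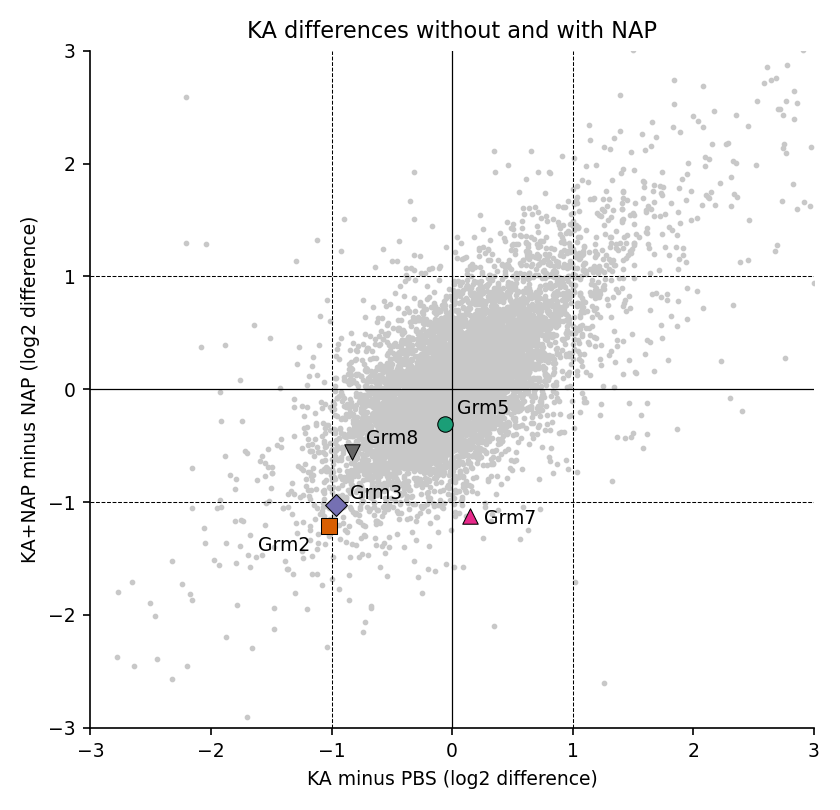
Log2 difference KA minus PBS (x axis) against KA+NAP minus NAP (y axis), 2 differences that share no array, for the 9489 genes past the filter (grey) and 5 receptor genes (symbols). Dashed lines mark 2-fold, and 37 genes fall outside the axes. Grm2 (-1.02, -1.21), Grm3 (-0.96, -1.03) and Grm8 (-0.83, -0.56) sit in the lower left, Grm5 (-0.06, -0.31) near the centre, and Grm7 (0.15, -1.12) below the centre.

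Grm7, a group III receptor of the presynaptic active zone, did not share that pattern. Its only probe set (1369781_at) had an intensity of 46 with KA+NAP, 83 with KA, 112 with NAP and 74 with PBS. The log2 difference was 0.15 in KA minus PBS and -1.12 in KA+NAP minus NAP. The KA+NAP array was the lowest of the 4 and the NAP array the highest, while KA and PBS lay between them and close together. With KA+NAP it stood at 60.2% of KA, a log2 difference of -0.73 that 1.55% of genes matched or passed. The KA difference with NAP less that without was -1.27, a value reached or passed on the low side by 0.854% of genes. Its mean intensity of 78.75 was close to the filter, and 1 array per group gives no error for these values. The KA+NAP intensity was under the filter, which Grm7 passed on its mean through the other arrays. Nothing is therefore read from these shares.

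Grm5, the group I receptor on the array, was highest with NAP alone, next highest with KA+NAP, and close to PBS with KA alone. Its brightest probe set (1393665_at) had an intensity of 227 with KA+NAP, 178 with KA, 284 with NAP and 186 with PBS. The log2 difference was -0.06 in KA minus PBS, -0.31 in KA+NAP minus NAP and 0.33 in KA+NAP minus KA. In NAP minus PBS it was 0.58, and 96.0% of genes were at or below that value. The dim probe set of Grm5 (1369355_at) read 33 with KA+NAP, 33 with KA, 45 with NAP and 28 with PBS, again highest with NAP. The levels with and without KA overlapped in both probe sets.

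Grm4, known mainly from cerebellar granule cells, was the dimmest of the 6 genes. Its probe set (1368690_a_at) read 14 with KA+NAP, 19 with KA, 21 with NAP and 23 with PBS. Its mean of 19.25 lay under the filter, and 20.7% of all values in the table were 10 or less, so its log2 differences of -0.19 in KA minus PBS and -0.37 in KA+NAP minus NAP rest on very little signal. The KA arrays lay below the arrays without KA by 2 units at the closest, and Grm4 is not counted among the genes past the filter.

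Counted by the rule of size, 1 of the 5 genes past the filter (Grm2) was at least 2-fold lower in KA minus PBS, against 2.39% of all genes, and 0 were at least 2-fold higher, against 4.91%. In KA+NAP minus NAP, 3 of 5 (Grm2, Grm3 and Grm7) were at least 2-fold lower, against 2.41%, and 0 were higher, against 5.67%. Grm2 on both KA arrays and Grm7 on the KA+NAP array were under 62.75 and passed on their mean through the other arrays, so these counts are descriptions. With no filter they were 1 and 3 of 6 genes, against 3.19% and 3.09% of 14217 genes at least 2-fold lower. In KA+NAP minus PBS, which shares the PBS array with KA minus PBS, 1 of 5 (Grm2, at -1.11) was at least 2-fold lower, against 2.13% of all genes. With the arrays shifted to 1 median it was 2 of 5 (Grm2 and Grm3), against 3.11%. Grm3 was at -0.97 there, Grm8 at -0.63, Grm7 at -0.58 and Grm5 at 0.27. The median over the 5 genes was -0.83 in KA minus PBS, -1.03 in KA+NAP minus NAP and -0.63 in KA+NAP minus PBS. Over all genes past the filter it was 0.02, 0.03 and 0.03. Since Grm2 and Grm7 are among the 5, these medians are descriptions too.

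These counts sit close to the rule's edge. With a pseudocount of 50 in place of 10, Grm2 was at -0.72 and -0.85 in the 2 KA differences and Grm7 at -0.75 in KA+NAP minus NAP, and 0 receptor genes reached 2-fold in either, against 1.44% and 1.38% of all genes at least 2-fold lower. With the arrays shifted to 1 median, Grm3 joined Grm2 in KA minus PBS, against 2.98% of all genes.

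NAP itself was compared in tissue with and without KA. In KA+NAP minus KA, 0 of the 5 genes were at least 2-fold apart, against 2.12% of all genes. Grm2 was at -0.09, Grm3 at -0.01, Grm8 at 0.20, Grm5 at 0.33 and Grm7 at -0.73, so Grm2 and Grm3 stood at nearly the same level on the KA+NAP and the KA array. In NAP minus PBS, 0 of 5 were at least 2-fold apart, against 1.3% of all genes. Grm2 was at 0.10, Grm3 at 0.05 and Grm8 at -0.07, whereas Grm5 (0.58) and Grm7 (0.54) were at or above the 95th percentile of all genes, 0.54.

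**Figure D3:**
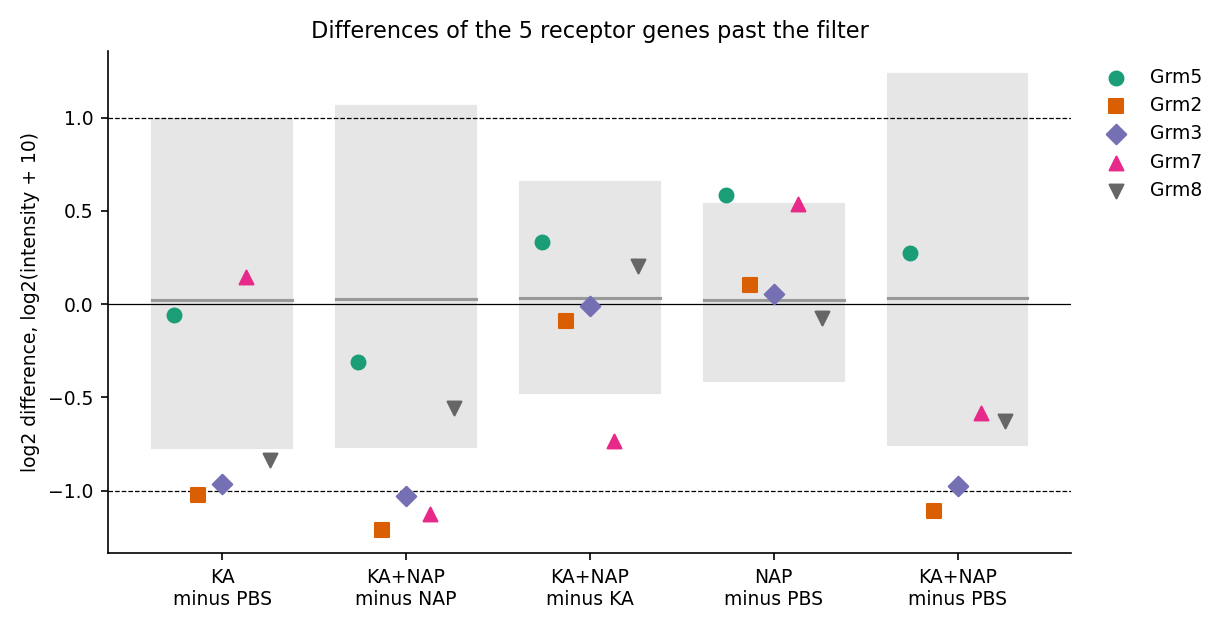
Log2 differences of the 5 receptor genes past the filter in the 5 comparisons (symbols), each from 2 single arrays. Grey bars span the 5th to the 95th percentile of all 9489 genes, the grey line is their median, and dashed lines mark 2-fold. Grm2 and Grm3 lie below the grey bar in the 3 comparisons of a KA array with an array without KA and near 0 in the others, and Grm7 lies below it in KA+NAP minus NAP and KA+NAP minus KA.

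Brightness sets how far single arrays can be read. Grm2, Grm7 and Grm8 fall in the dimmest of 3 equal groups of genes past the filter, where NAP minus PBS, the comparison without KA, ran from -0.48 to 0.66 between the 5th and the 95th percentile. Grm5 and Grm3 fall in the middle group, where that range was -0.41 to 0.52. The KA differences of Grm2 and Grm3, and that of Grm8 in KA minus PBS, lay outside these ranges. So did that of Grm7 in KA+NAP minus NAP, at -1.12. That of Grm8 in KA+NAP minus NAP, at -0.56, was just outside. These ranges come from 1 pair of arrays that differ by treatment, so they give no error. In KA minus PBS the dimmest group ran from -0.81 to 1.12, and Grm8 at -0.83 was barely outside. In KA+NAP minus NAP it ran from -0.83 to 1.23, with Grm8 inside and Grm7 outside. Grm2 passed the filter only through the arrays without KA, and Grm7 through arrays other than KA+NAP, so their places are descriptions. In NAP minus PBS itself, Grm5 (0.58) lay above the range of its group and Grm7 (0.54) inside that of its own.

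The genes with the most similar profiles over the 4 arrays were found by the same distance between centred log2 profiles, over 9484 genes. For Grm3 they were Ttpa (distance 0.02), the calcium-binding copine Cpne6 (0.02) and the astrocyte folate enzyme Aldh1l1 (0.02), which read 188 with KA+NAP, 181 with KA, 386 with NAP and 369 with PBS. For Grm2 they were Cyp2j3 (0.02), Lzts3 (0.03) and the kinase gene Pnck (0.03). For Grm8 they were Necab2 (0.01), a neuronal calcium-binding protein gene that read 440, 382, 659 and 687 in the same order of arrays, Slco2b1 (0.02) and Gsta1 (0.03). For Grm7 they were Cobl (0.04), Prkaca (0.05) and Mzf1 (0.08), and for Grm5 Bcl2l11 (0.02), Atxn7l1 (0.04) and Aif1l (0.04). Within a distance of 0.1 there were 168 genes for Grm8, 55 for Grm3, 46 for Grm5, 30 for Grm2 and 9 for Grm7. With 4 arrays such likeness is a description, and many genes share it.

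Among 10 group I partners and scaffolds past the filter, 0 were 2-fold apart in KA minus PBS (median -0.56, with Siah1 lowest at -0.73), and Homer2, which links group I receptors to the calcium store, was 2-fold higher in KA+NAP minus NAP (1.18). Its intensities were 217 with KA+NAP, 142 with KA, 90 with NAP and 173 with PBS, so the NAP array was the low one. Of 11 genes of the Gq and phospholipase C arm, the calcium release channel Itpr1 was 2-fold lower in KA minus PBS (-1.13, median -0.01) and 0 were 2-fold apart in KA+NAP minus NAP (median -0.12). Of 11 genes of the Gi/o arm, through which Grm2, Grm3, Grm7 and Grm8 act, 9 were below 0 in each KA difference, with medians of -0.42 and -0.40. All genes past the filter had medians of 0.02 and 0.03. Their share below 0 was not counted, so the 9 are a description. The adenylyl cyclase gene Adcy8 was 2-fold lower in KA+NAP minus NAP (-1.12), and its 46 with KA+NAP, 107 with KA, 112 with NAP and 98 with PBS made KA+NAP its lowest array, as for Grm7. None of 5 partners of group II and III receptors was 2-fold apart in any comparison, the largest difference being -0.84 for the syntaxin gene Stx1a in KA+NAP minus NAP. Of 10 desensitisation and RGS genes, Rgs4, which shortens Gq and Gi/o signals, was 2-fold higher in KA minus PBS (1.60). It was at 0.31 in KA+NAP minus NAP, and the list medians were 0.06 and -0.01. Among 9 glutamate transport and metabolism genes 0 were 2-fold apart in any comparison (medians -0.13 and -0.28 in the KA differences), the largest difference being -0.70 for the vesicular transporter Slc17a7 in KA+NAP minus NAP.

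Of 12 ionotropic glutamate receptor subunits past the filter, a list added after the data were seen, 0 were 2-fold apart in either KA difference, with medians of -0.36 and -0.30. The lowest were Grin2c (-0.91) in KA minus PBS and the kainate receptor subunit Grik4 (-0.74) in KA+NAP minus NAP. The metabotropic and ionotropic families were not tested against each other.

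Markers of the cell types that carry these receptors moved as follows, and their part in the receptor levels was not tested. Over all genes past the filter the medians of the 2 KA differences were 0.02 and 0.03. The share of all genes below 0 was not counted, so counts of markers below 0 are descriptions. Of 12 pyramidal and pan-neuronal markers, 11 were below 0 in each KA difference. Their medians were -0.47 and -0.59, their summed intensity 27703 with KA+NAP, 27742 with KA, 34149 with NAP and 37070 with PBS, and Neurod1 (-1.03) and Syt1 (-1.02) were 2-fold lower in KA+NAP minus NAP. The markers of dentate granule cells, which are known to make Grm2, had 3 of 5 genes past the filter, with a median of 0.14 in KA minus PBS and -0.85 in KA+NAP minus NAP. Prox1 was at -0.30 and -0.67 there, and the opioid precursor Pdyn at 1.02 and -1.71. Of 10 astrocyte markers, 2 were 2-fold lower in KA minus PBS, the connexin gene Gjb6 (-2.78) and Aldoc (-1.07). In KA+NAP minus NAP the 2 were Gjb6 (-2.38) and Aldh1l1, which was exactly 2-fold lower on this scale and was the gene nearest in profile to Grm3 among astrocyte markers. Of the 10 astrocyte markers, 8 were below 0 in KA minus PBS and 7 in KA+NAP minus NAP. Gfap (0.50 and 0.28) and Aqp4 (0.06 and 0.02) were above 0 in both, and Fgfr3 (0.63) in KA+NAP minus NAP. The astrocyte medians were -0.24 and -0.31, and the summed astrocyte intensity was 34748 with KA+NAP, 32197 with KA, 39023 with NAP and 38614 with PBS. GABAergic interneuron markers had medians of -0.17 and 0.16 over 7 genes, with Gad2 (1.15) and Pvalb (-1.08) 2-fold apart in KA minus PBS. Oligodendrocyte and precursor markers had medians of -0.19 and 0.11 over 7 genes, the second of which was -0.16 with all probe sets averaged.

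Microglia and macrophage markers had medians of 0.10 and 0.50 over 9 genes in the KA differences, with Cd14 (2.74), Cybb (1.73) and Cd68 (1.30) 2-fold higher and P2ry12 (-2.16) and Tmem119 (-1.55) 2-fold lower in KA minus PBS. On the PBS array Cybb (27) and Cd68 (24) were under the filter and passed on their mean, so the sizes of their differences are descriptions. Cybb (1.74), Cd68 (1.68) and Cd14 (1.66) were 2-fold higher and P2ry12 (-1.05) lower in KA+NAP minus NAP. All 10 on the array, with Cx3cr1 under the filter included, had a summed intensity of 3733 with KA+NAP, 2075 with KA, 2849 with NAP and 2906 with PBS. The 4 meningeal and choroid plexus markers past the filter (Ttr, Igf2, Ogn and Dcn) had a median of 1.10 in NAP minus PBS and -1.10 in KA+NAP minus NAP, and the NAP minus PBS median was 0.48 with probe sets averaged and 0.52 over all 7 markers without the filter. Summed over all 7 on the array, their intensity was 693 with KA+NAP, 787 with KA, 1627 with NAP and 897 with PBS. This sum was thus highest on the NAP array, as were Grm5 and Grm7. Grm2 and Grm3 were highest there too, by less (0.10 and 0.05 in NAP minus PBS). The part of these markers in those levels was not tested.

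In the remaining comparisons, the following list genes were at least 2-fold apart. On the PBS array Cybb (27), Cd68 (24) and Itgam (56) were under the filter of 62.75. So were Itgam on the KA array (62) and Adcy8 on the KA+NAP array (46). They passed on their mean through other arrays, so the sizes of their differences are descriptions. In KA+NAP minus PBS, Cybb (3.76), Cd14 (an intensity of 624 against 69), Cd68 (2.90), Itgam (1.58) and Aif1 (1.22) were higher, and Gjb6 (-2.30), Ttr (-2.08), P2ry12 (-1.52), Grik4 (-1.05), Neurod1 (-1.02) and Pdyn (-1.02) were lower. Cybb (2.03), Cd68 (1.60), Itgam (1.46), Dcn (1.28) and Aif1 (1.11) were higher in KA+NAP minus KA, where Ttr (-2.43), Pdyn (-2.03) and Adcy8 (-1.06) were lower. In NAP minus PBS, Cybb (2.02), Ogn (1.76), Igf2 (1.69), Cd14 (1.34) and Cd68 (1.22) were higher and 0 were lower. Among the meningeal and choroid plexus markers, Dcn was lower in KA minus PBS (-1.50), and Ttr (-2.10), Igf2 (-1.15) and Ogn (-1.04) were lower in KA+NAP minus NAP.

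**Figure D4:**
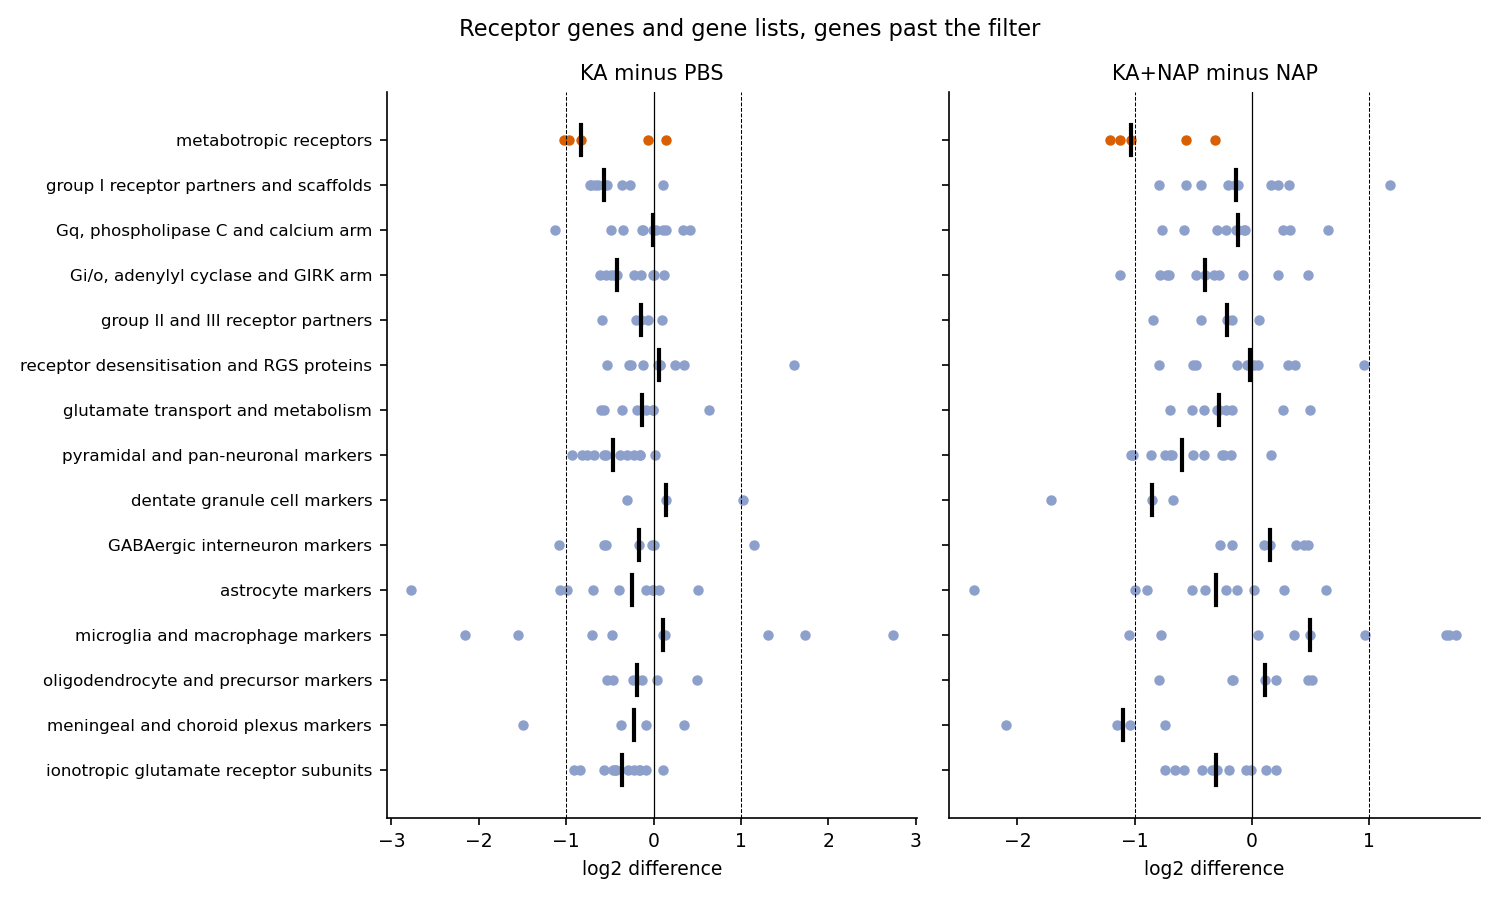
Log2 differences of the receptor genes (orange) and of the genes of each list (blue) past the filter, KA minus PBS at the left and KA+NAP minus NAP at the right. Black bars are list medians and dashed lines mark 2-fold. The receptor median lies at -0.83 and -1.03, and those of the pyramidal and pan-neuronal markers at -0.47 and -0.59. The receptor genes include Grm2 and Grm7, which passed the filter on their mean through arrays on which they were higher.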

How the data were processed

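Probe set intensities were computed with MAS5, per the submitters' processing notes, from biotin-labelled cRNA made by a 2-cycle protocol from 500 ng of total RNA, per the labels' protocols. That procedure favours 3′ ends. No source used here gives the MAS5 version or its detection calls. As deposited, intensities are whole numbers on a linear scale, 1180 of them 0. All 4 columns belong to the 4 samples.

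Of the probe sets, 20826 had 1 gene symbol, 436 several (not named), 9780 were not listed and 57 were controls. Symbols were updated through Entrez identifiers to the GRCr8 gene table. No build is named for the table, so coordinates are given for promoter windows only. Differences of log2(intensity + 10) were taken in Python 3.11.15 (pandas 2.3.3). This scale understates differences of dim genes. A run on simulated data with large built-in changes counted the genes called at 2-fold. It checked the working of the code only, and says nothing of fold sizes or of the calls of dim genes. With 1 array per group no test was run: grouping the arrays as 2 with KA against 2 without, an exact two-sided permutation test could not go below 0.333. Named genes were the members, list genes at least 2-fold apart in a comparison described or else with the largest difference of their list, and the 3 nearest profiles. Other list genes named with a value were picked after their values were seen. Members and lists were chosen with earlier results of these data known. Alternatives were other pseudocounts, scalings, probe set summaries and filters. Promoter windows are those of RefSeq.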

Additional observations from a re-analysis of the deposited data

Results flagged for a closer look

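Grm7 was singled out because its KA difference ran one way without NAP (0.15) and the other way with NAP (-1.12), so that the KA difference with NAP less that without was -1.27. The difference between these 2 values was not tested, since each rests on 2 single arrays. Over the alternatives it ranged from -1.43 to -0.86.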

How the results depend on the processing

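Each group had 1 array, so no replicate could be left out, and no paired fit was run. The count of receptor genes at least 2-fold apart was 1 in KA minus PBS, 3 in KA+NAP minus NAP and 1 in KA+NAP minus PBS. With a pseudocount of 50 all 3 counts were 0, against 1.44%, 1.38% and 1.15% of all genes at least 2-fold lower. With arrays shifted to 1 median it was 2 in KA minus PBS (2.98% of all genes) and 2 in KA+NAP minus PBS (3.11%), and with quantile normalization 2 in KA+NAP minus PBS (2.68%). With the filter at the 75th percentile, which left 1 receptor gene (Grm3), the counts were 0, 1 and 0, against 1.93%, 1.80% and 1.75%. With NAP as the array without KA, the count for KA was 2 (Grm2 and Grm3). The share of all genes was not computed for that setting, so nothing is read from this count. The other 26 of 36 recomputed counts were within 1.5 times the main count. No receptor difference or list median of 2-fold or more changed sign under these alternatives. Grm2 and Grm3 were below 0 in both KA differences under every alternative run. Grm8 was too. Grm5 in KA minus PBS turned to 0.06 with its probe sets averaged and was -0.65 against the NAP array, and Grm7 there was -0.39. Grm8 in NAP minus PBS turned to 0.11 with its probe sets averaged. Of 490 recomputed list medians, 32 moved by more than 0.16, the median absolute difference of NAP minus PBS. Among medians near 0, glutamate transport in KA minus PBS turned to 0.01 with probe sets averaged, dentate markers to -0.09 without a filter, and microglia markers to -0.47 with the filter at the 75th percentile. Low signal limits Grm4 and the second probe sets.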
